A study of Mus musculus with 19 samples.

Results

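The interferon response genes described here are 33 genes that cells raise, or use, once an interferon has been sensed. They were chosen by gene symbol, with earlier results of these data known, and all 33 are listed among the 22193 genes of both deposited tables. Cerebellar RNA of 19 C57BL/6 mice aged 60 days was sequenced, in groups named hGFAP-Gnas (8 mice), in which hGFAPCre deletes the gene of Gsα, Olig1-Gnas (8 mice), in which Olig1Cre does so, and Ctrl (3 wild-type mice). Gnas encodes Gsα, through which many receptors switch on cyclic AMP production, and the study's title calls Gsα a suppressor of medulloblastoma of the Sonic hedgehog type. The human GFAP promoter drives Cre in neural stem cells and the neurons and glia that arise from them, and Olig1 marks progenitors of the oligodendrocyte lineage and others. The submitters' name for the set of hGFAP-Gnas values holds the word tumor. The share of tumor tissue in each knockout library was not measured here. The samples were bulk tissue, in which a lower share of a cell type and less RNA per cell cannot be told apart.

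Interferons are secreted proteins that bind receptors on nearly every cell. Type I interferons act through the kinases JAK1 and TYK2 to build a complex that holds STAT2 and IRF9 and binds an element called ISRE in the promoters of its targets. Type II interferon, made mainly by T and natural killer cells, acts on promoters through an element called GAS, and through IRF1. In the brain, microglia, astrocytes and invading leukocytes are known to show this response. The 33 genes comprise 4 sensors of foreign or misplaced nucleic acid, 4 transcription factors, 15 antiviral effectors, 6 genes of ISG15, ubiquitin or ADP-ribose tagging and 4 GTPases that attack the vacuoles of microbes.

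Of the 33 genes, 24 have a promoter entry in the RefSeq table used here (GRCm38.p6), a window from 250 bases before to 50 bases after a gene's start. Its letters were searched on both strands for the core of ISRE (GAAA, any 2 bases, then GAAA, or on the other strand TTTC, any 2 bases, then TTTC) and of GAS (TTCNNNGAA, the same on both strands). ISRE letters were in the windows of 13 of the 24 genes (54.2%), against 3.99% of 27025 genes with a window. GAS letters were in those of 6 of the 24 (25%), against 9.55% of all genes. Both were in the windows of Oas1a, Bst2 and Igtp. Dhx58, Zbp1, Oas2, Mx1, Mx2, Rtp4, Usp18, Parp9 and Parp14 have no entry there. The 250 bases before the start are shown for 3 genes, read 5′ to 3′ along the gene's strand with every match in capitals. They stand for 3 layouts: 3 overlapping ISRE matches in Isg15 (chr4:156200819-156201068, minus strand), a GAS match next to an ISRE match in Igtp (chr11:58199306-58199555, plus strand) and a GAS match alone in Irf1 (chr11:53769764-53770013, plus strand).
Isg15: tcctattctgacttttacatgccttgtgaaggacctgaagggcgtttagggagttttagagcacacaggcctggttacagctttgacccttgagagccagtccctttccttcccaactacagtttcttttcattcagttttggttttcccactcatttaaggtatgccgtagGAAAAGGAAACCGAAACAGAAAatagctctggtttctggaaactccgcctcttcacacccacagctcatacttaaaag
Igtp: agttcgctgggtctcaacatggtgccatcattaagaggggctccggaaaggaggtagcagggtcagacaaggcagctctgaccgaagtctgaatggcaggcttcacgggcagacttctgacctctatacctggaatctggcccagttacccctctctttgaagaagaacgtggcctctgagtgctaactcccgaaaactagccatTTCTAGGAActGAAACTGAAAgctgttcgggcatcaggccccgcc
Irf1: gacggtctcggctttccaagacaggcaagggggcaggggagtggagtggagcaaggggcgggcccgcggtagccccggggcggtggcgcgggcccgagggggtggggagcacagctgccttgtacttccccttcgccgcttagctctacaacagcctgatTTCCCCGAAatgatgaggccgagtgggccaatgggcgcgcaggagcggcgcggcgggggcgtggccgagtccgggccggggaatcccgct

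The ISRE matches of 8 more genes are given with 12 bases on either side, so that their spacing can be compared. They lie at chr10:128270264-128270297 for Stat2, chr19:34640773-34640825 for Ifit1, chr19:34583395-34583428 for the nearer of the 2 in Ifit3, chr3:142620592-142620625 for Gbp2 and chr3:142559987-142560026 for Gbp3, all on the plus strand. On the minus strand they lie at chr12:26456551-26456584 for Rsad2, chr8:71537575-71537614 for Bst2 and chr11:48871423-48871462 for Irgm1. Capitals mark ISRE letters alone here; in Bst2 a GAS match overlaps the first of them.
Stat2: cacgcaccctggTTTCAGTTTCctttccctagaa
Ifit1: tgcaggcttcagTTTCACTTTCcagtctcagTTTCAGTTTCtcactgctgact
Ifit3: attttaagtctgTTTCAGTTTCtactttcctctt
Rsad2: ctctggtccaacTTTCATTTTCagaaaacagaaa
Bst2: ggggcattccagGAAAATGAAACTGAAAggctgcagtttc
Gbp2: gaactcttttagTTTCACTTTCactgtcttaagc
Gbp3: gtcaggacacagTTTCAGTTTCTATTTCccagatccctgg
Irgm1: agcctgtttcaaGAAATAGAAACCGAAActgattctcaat

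A match is a description of letters and not evidence of binding. In hGFAP-Gnas against Ctrl, 7 of the 13 genes with these letters and 7 of the 11 without them were called higher by the test described below. Of all tested genes 26.1% were. In Olig1-Gnas against Ctrl, 2 of the 13 were called higher and 1 lower, against 4 higher of the 11. There 36.2% of all tested genes were called higher and 23.6% lower. Whether the shares with and without the letters differ was not tested.

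**Figure D1:**
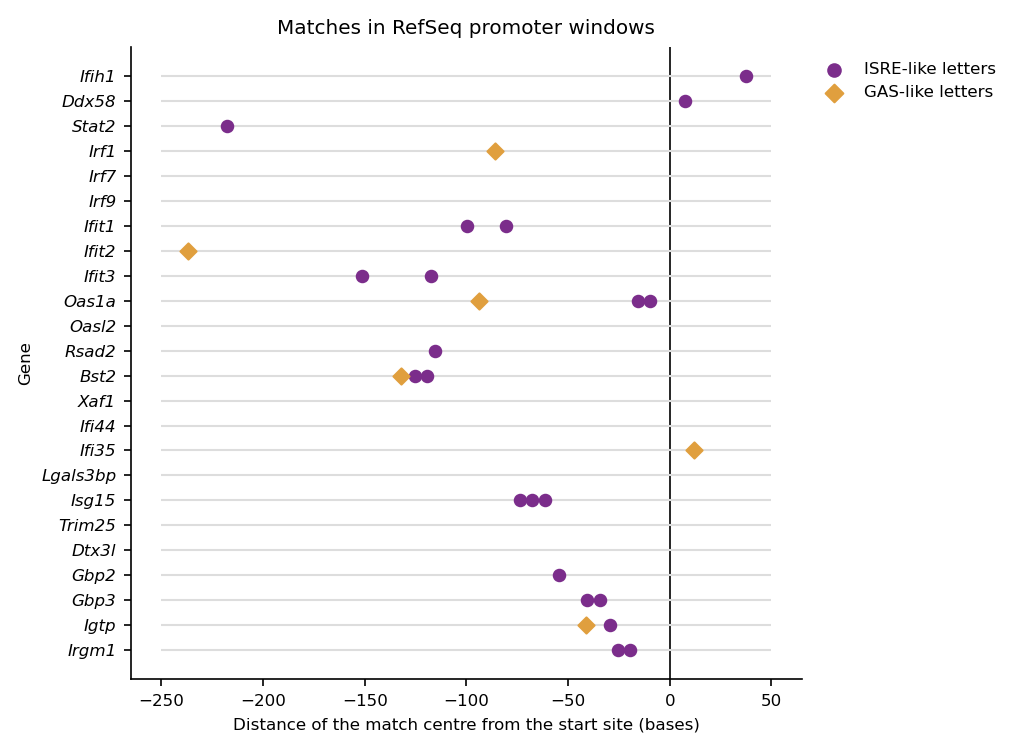
Positions of ISRE-like and GAS-like letters in the RefSeq promoter windows of 24 interferon response genes, as the distance in bases from the transcription start to the centre of the match. Grey lines span each window, several windows of 1 gene are laid over each other, and 13 genes hold ISRE-like and 6 hold GAS-like letters.

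Values are FPKM, fragments scaled to transcript length and to the mapped fragments of the library, so levels can be compared between genes. They summed to 505739 to 659634 per library in hGFAP-Gnas, 603067 to 689165 in Olig1-Gnas and 508329 to 525832 in Ctrl. The number of reads is unknown; from steps among the lowest values, hGFAP-Gnas 5 to 8, Olig1-Gnas 1 to 4 and Ctrl 3 had 0.269 to 0.431 of the depth of Ctrl 2, and the other libraries 0.832 to 1.06. Gnas itself is a weak check of the labels, since an exact 0 can be a failed estimate. It is listed above 0 in 1 of 8 hGFAP-Gnas libraries (40.9 FPKM) against 1 of 3 Ctrl libraries in their table (798 FPKM), and in 5 of 8 Olig1-Gnas libraries (24.05 to 121.5 FPKM) against 2 of 3 Ctrl libraries in theirs (651 and 798 FPKM). Summed FPKM of 10 mature granule neuron markers was 200 to 1919 in hGFAP-Gnas, 95.7 to 739 in Olig1-Gnas and 2245 to 2964 in Ctrl, and that of 10 markers of dividing cells was 15.9 to 739 in hGFAP-Gnas, 501 to 1017 in Olig1-Gnas and 2.10 to 3.13 in Ctrl. The defining neurons of the cerebellum were thus present in the Ctrl libraries, and every knockout library had a lower sum of their markers.

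Several libraries stood apart. hGFAP-Gnas 1 lay nearest to Ctrl, with 15.9 FPKM of dividing cell markers where the other hGFAP-Gnas libraries held 280 to 739 FPKM. Olig1-Gnas 1 and 2 were a close pair, with a median absolute log2 difference of 0.108 over 7976 genes, where Ctrl 1 and 2 gave 0.0897 and hGFAP-Gnas 5 and 6 gave 0.114. Olig1-Gnas 1 and 2 also held the highest levels of nearly all interferon response genes in their group. Results are therefore given with and without hGFAP-Gnas 1 and with and without Olig1-Gnas 1 and 2.

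In hGFAP-Gnas the interferon response genes were mostly higher than in Ctrl. Of the 33 genes, all of which could be tested, 20 rose and 0 fell by limma at an adjusted p under 0.05, where 26.1% of all 14305 tested genes rose and 12.8% fell. The median difference of the 33 genes was 1.16 on the scale of log2(FPKM + 1), against 0.19 over all tested genes. The genes that rose were Ddx58 and Zbp1 among the sensors, Irf1, Irf7 and Irf9 among the factors, 9 of 15 effectors (Ifit2, Oas1a, Oas2, Oasl2, Rsad2, Mx1, Bst2, Rtp4 and Lgals3bp), 4 of 6 tagging genes (Isg15, Trim25, Parp9 and Parp14) and 2 of 4 GTPases (Gbp2 and Irgm1). The filter on low values lets a gene in through the group in which it is high, so the count was repeated with no filter, where 13 genes rose (18.4% of all genes did) and the median was 1.16 (0.07 over all genes). After quantile normalization 12 rose (19% of all genes did), and 17 rose after upper quartile scaling (21.5% of all genes did). These scalings moved the median of all genes to -0.01 and 0.04. They moved the share of higher genes among all called genes to 49.8% and 54.8%, where it was 67.1%. Among the 16 genes with at least 1 FPKM in all 3 Ctrl libraries 9 rose, and among the other 17 genes 11 rose. Some of the 17, such as Zbp1 and Mx1, were under 1 FPKM in all 3 Ctrl libraries and passed the filter through hGFAP-Gnas alone. The shares of all genes at these Ctrl levels were not computed, so these counts show no excess by themselves.

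The count rested on single libraries. Without hGFAP-Gnas 1, 29 genes rose and 1 fell (38.0% of all tested genes rose), and the median was 1.36. With Ctrl 1, 2 or 3 left out in turn, 2, 2 and 5 genes rose, where 5.98, 4.78 and 10.5% of all genes did. Without hGFAP-Gnas 4, 8 genes rose (20.3% of all genes did), and without 7, 13 rose (25.6%). Without 6 and without 8, 12 rose each, where 20.8 and 20.9% of all genes did. When the closest pairs of libraries were each averaged into 1 sample, 0 rose and 7 of all genes were called, at a median of 1.11. Among the deeper libraries alone 0 rose (median 1.52), where 0.0433% of all genes did. Among the shallower, with Ctrl 3 as the only Ctrl library, the median was 0.73. Ifit2 and Lgals3bp were called without any 1 Ctrl library, and the medians over the 33 genes lay between 1.00 and 1.36 when any 1 library was left out.

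In Olig1-Gnas fewer of the genes passed the test at a similar median. Of 32 genes tested, 8 rose, namely Zbp1, Irf1, Ifit2, Bst2, Rtp4, Ifi44, Lgals3bp and Isg15, and 1 fell, Stat2. Over all 14183 tested genes 36.2% rose and 23.6% fell, so the share of interferon response genes that rose was no higher than that of all genes. Their median difference was 1.13, against 0.22 over all tested genes. Mx1 was below the filter, with 0.204 to 4.24 FPKM in Olig1-Gnas and 0.0221 to 0.0797 FPKM in Ctrl. With no filter 6 of the 33 genes rose (27.0% of all genes) and 1 fell, with a median of 1.10 (0.05 over all genes). Without Olig1-Gnas 1 and 2, 7 rose and 1 fell of the 28 that could still be tested (34.8% of all genes rose), and the median was 0.66, against 0.19 over all genes. In that fit Ifi44 and Rtp4 lost their calls and Ddx58 gained one. With Ctrl 1, 2 or 3 left out in turn the counts were 3, 4 and 5 higher and 0 lower, where 30.9, 31 and 31.5% of all genes rose. Bst2, Ifit2 and Lgals3bp kept their calls in each of these fits. When the closest pairs of libraries were averaged, 3 rose (30% of all genes did). Among the deeper libraries alone 6 of 23 rose (29.1% of all genes did), at a median of 0.92. Among the shallower, with Ctrl 3 as the only Ctrl library, the median was 1.57. After quantile normalization 10 rose (30.6% of all genes did), and 6 after upper quartile scaling (29.8%). The median of all genes moved to 0.06 and 0.04 in these 2 scalings. The share of higher genes among all called moved to 51.4% and 51.0%, where it was 60.5%. Both comparisons use the same 3 Ctrl mice.

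**Figure D2:**
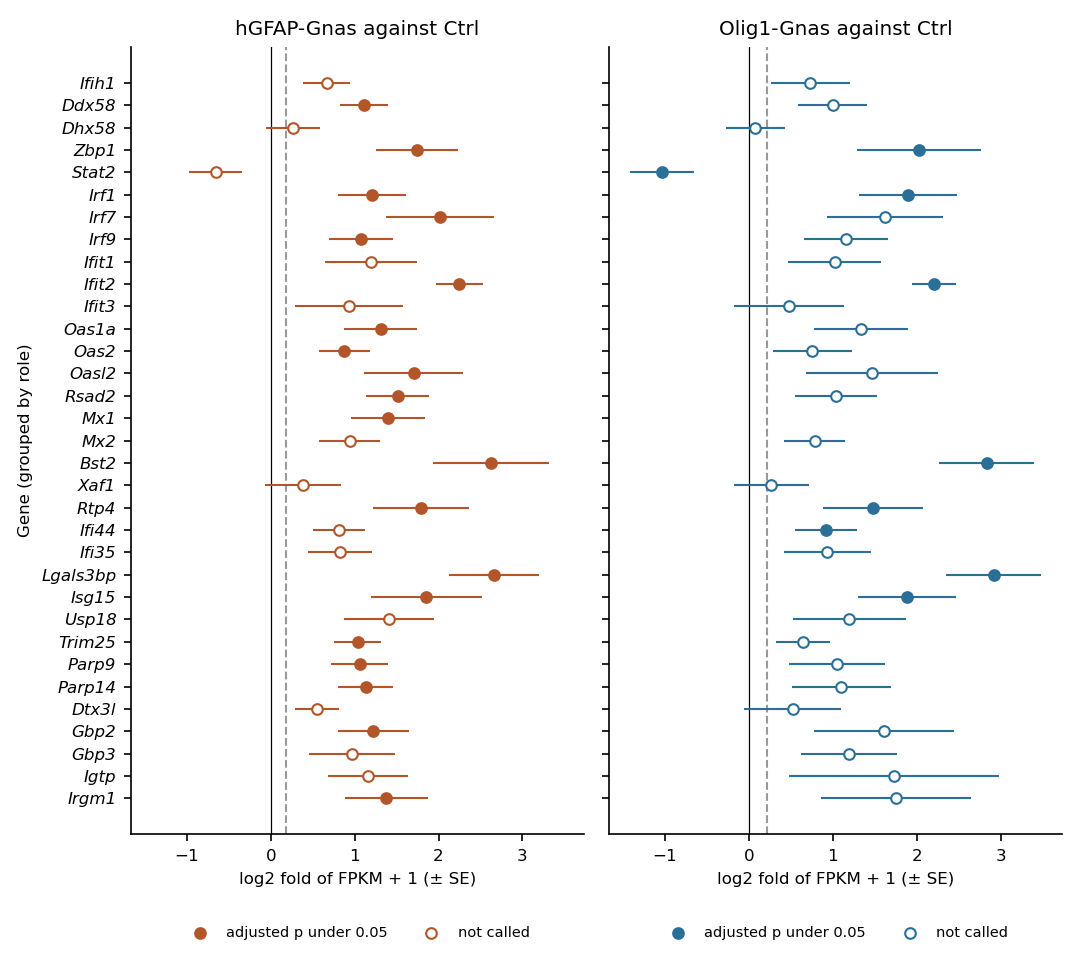
Differences of the 33 interferon response genes on the scale of log2(FPKM + 1), hGFAP-Gnas minus Ctrl on the left and Olig1-Gnas minus Ctrl on the right, with standard errors; filled points were called and dashed lines mark the median of all tested genes (0.19 and 0.22). Most points lie right of the dashed line, Stat2 lies left of 0 in both panels, and Mx1 has no point on the right because it was not tested there.

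Below, 3 values for a knockout are its lowest, median and highest library, and 3 values for Ctrl are libraries 1, 2 and 3. Among the sensors, Zbp1, which recognises nucleic acid in the Z form and can start cell death, was near 0 in wild-type cerebellum (chr2:173032113-173044423, mm9). It stood at a lowest, median and highest level of 0.161, 2.91 and 9.03 FPKM in hGFAP-Gnas, 0.355, 2.64 and 22.7 FPKM in Olig1-Gnas, and at 0.0857, 0.186 and 0.172 FPKM in Ctrl 1, 2 and 3. Every Olig1-Gnas library exceeded every Ctrl library, and hGFAP-Gnas 1 alone among the knockout libraries did not. The log2 difference was 1.74 ± 0.49 in hGFAP-Gnas (SE, n = 8 against 3, limma adjusted p = 0.0206) and 2.03 ± 0.74 in Olig1-Gnas (adjusted p = 0.0330). It was 1.99 without hGFAP-Gnas 1 and 1.33 without Olig1-Gnas 1 and 2 (adjusted p = 0.000591 and 0.0063). Zbp1 was not called in either comparison when any single Ctrl library was left out (adjusted p of 0.0654 to 0.0898).

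Ddx58, which encodes the RNA sensor RIG-I, had 1.67, 3.23 and 6.73 FPKM (lowest, median, highest) across hGFAP-Gnas, 1.40, 2.33 and 7.71 FPKM across Olig1-Gnas, and 0.836, 0.976 and 1.30 FPKM across Ctrl. No knockout library overlapped with Ctrl. The difference was 1.11 ± 0.28 in hGFAP-Gnas (adjusted p = 0.0151), and 1.00 ± 0.41 in Olig1-Gnas missed the threshold (adjusted p = 0.0514). Without Ctrl 1 or without Ctrl 2 the hGFAP-Gnas call was lost too (adjusted p = 0.0679 and 0.0629). Ifih1, which encodes the RNA sensor MDA5, stood at 0.557 to 3.62 FPKM in hGFAP-Gnas, 0.672 to 6.71 FPKM in Olig1-Gnas and 0.643 to 0.687 FPKM in Ctrl and was not called in either comparison (adjusted p = 0.0787 and 0.2003). Dhx58, which encodes the related helicase LGP2, overlapped with Ctrl in both knockouts, at 1.19 to 5.52 FPKM in hGFAP-Gnas and 0.966 to 4.98 FPKM in Olig1-Gnas against 1.87 to 2.43 FPKM in Ctrl. Its differences of 0.27 ± 0.32 and 0.08 ± 0.35 were not called, and both turned below 0 after quantile normalization (-0.03 and -0.04).

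Among the transcription factors, the medians of the 3 IRF genes lay above Ctrl in both knockouts and that of Stat2 lay below. Irf7, the factor that amplifies type I interferon production (chr7:148449087-148452300, mm9), had 0.887, 7.71 and 24.5 FPKM (lowest, median, highest) across hGFAP-Gnas, 0.778, 4.13 and 16.9 FPKM across Olig1-Gnas, and 0.574, 1.05 and 1.12 FPKM across Ctrl. In hGFAP-Gnas only library 1 lay within the Ctrl range, and in Olig1-Gnas libraries 5 and 6 did, at 1.03 and 0.778 FPKM. The difference was 2.02 ± 0.64 in hGFAP-Gnas (adjusted p = 0.0303) and 1.62 ± 0.69 in Olig1-Gnas, which was not called (adjusted p = 0.0618). Without hGFAP-Gnas 1 it was 2.31 (adjusted p = 0.00243), and leaving out Ctrl 1, 2 or 3 ended the call (adjusted p = 0.105, 0.0867 and 0.0790).

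Irf1, a factor that type II interferon is known to raise through a GAS element (chr11:53583515-53591876, mm9), was called in both comparisons. It had 2.06, 6.89 and 17.1 FPKM across hGFAP-Gnas, 5.01, 9.13 and 40.6 FPKM across Olig1-Gnas, and 1.77, 1.97 and 3.73 FPKM across Ctrl. All Olig1-Gnas libraries lay above Ctrl, and all hGFAP-Gnas libraries but number 1 did. The difference was 1.21 ± 0.41 in hGFAP-Gnas (adjusted p = 0.0371) and 1.89 ± 0.59 in Olig1-Gnas (adjusted p = 0.0152). The highest Olig1-Gnas values were 40.6 FPKM in library 1 and 35.6 FPKM in library 2, and the other 6 lay between 5.01 and 12.6 FPKM; without these 2 the difference was 1.35 (adjusted p = 0.00371). Leaving out any Ctrl library ended the call in hGFAP-Gnas (adjusted p of 0.0611 to 0.134), as did leaving out Ctrl 1 or 2 in Olig1-Gnas (adjusted p = 0.0613 and 0.0566).

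Irf9, the DNA-binding partner of STAT2, had 4.23, 12.9 and 24.0 FPKM across hGFAP-Gnas, 5.02, 11.3 and 36.4 FPKM across Olig1-Gnas, and 5.39, 5.27 and 5.96 FPKM across Ctrl. hGFAP-Gnas 1 and Olig1-Gnas 6 lay below every Ctrl library and the other knockout libraries above. The difference of 1.07 ± 0.38 was called in hGFAP-Gnas (adjusted p = 0.0435), with adjusted p of 0.1003 to 0.123 once a Ctrl library was left out, and that of 1.16 ± 0.51 in Olig1-Gnas was not (adjusted p = 0.0660).

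Stat2, the partner of IRF9 in the response to type I interferon (chr10:127707631-127729905, mm9), went against the rest of the genes although its promoter window holds ISRE letters. It had 10.1, 15.9 and 33.3 FPKM across hGFAP-Gnas, 6.17, 14.7 and 20.8 FPKM across Olig1-Gnas, and 28.4, 24.9 and 28.5 FPKM across Ctrl 1, 2 and 3. Every Olig1-Gnas library lay below every Ctrl library, and all hGFAP-Gnas libraries but number 1 did. Stat2 fell in Olig1-Gnas (-1.04 ± 0.38, adjusted p = 0.0324), and in hGFAP-Gnas -0.66 ± 0.32 was not called (adjusted p = 0.116). It was -0.79 without hGFAP-Gnas 1 (adjusted p = 0.0206) and -1.26 without Olig1-Gnas 1 and 2 (adjusted p = 0.0141). Leaving out Ctrl 1, 2 or 3 ended the call in Olig1-Gnas (adjusted p = 0.0920, 0.0686 and 0.0925).

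Neuronal markers differed between the same libraries. Stat2 was highest in hGFAP-Gnas 1, 2 and 7, at 33.3, 24.2 and 22.5 FPKM, and these libraries also held the highest sums of the 10 granule neuron markers in their group, at 1919, 1151 and 1357 FPKM, where the other 5 held 200 to 687 FPKM. All 10 of these markers were tested, and 8 fell in hGFAP-Gnas and 9 in Olig1-Gnas, where 12.8% and 23.6% of all tested genes fell. Olig1-Gnas 7 and 8, at 20.6 and 20.5 FPKM of Stat2, held 658 and 739 FPKM of the markers, but Olig1-Gnas 1 and 2 had 20.1 and 20.8 FPKM of Stat2 with marker sums of 301 and 317 FPKM. The part of neuronal RNA in the lower level of Stat2 was not tested.

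On the scale of log2(FPKM + 1), the largest differences in both comparisons were those of 3 effectors, Lgals3bp, Bst2 and Ifit2. By the ratio of mean FPKM, Mx1 and Zbp1, both near 0 in Ctrl, were the largest of the 33, at 40.8 and 23.6 in hGFAP-Gnas and 27.0 and 43.1 in Olig1-Gnas, where Lgals3bp had 7.65 in hGFAP-Gnas and 10.1 in Olig1-Gnas. Lgals3bp encodes a secreted glycoprotein that binds galectins (chr11:118254065-118263245, mm9). It had 8.81, 44.7 and 88.4 FPKM across hGFAP-Gnas, 20.6, 36.7 and 147 FPKM across Olig1-Gnas, and 3.52, 4.15 and 10.1 FPKM across Ctrl. Only hGFAP-Gnas 1 overlapped with Ctrl. The difference was 2.66 ± 0.53 in hGFAP-Gnas (adjusted p = 0.00847) and 2.92 ± 0.57 in Olig1-Gnas (adjusted p = 0.00101). Without hGFAP-Gnas 1 it was 2.95, and without Olig1-Gnas 1 and 2 it was 2.41 (adjusted p = 3.25e-05 and 0.000113).

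Bst2 encodes tetherin, which holds budding virus at the cell surface (chr8:74058160-74061336, mm9), and its promoter holds the 2 overlapping ISRE matches shown above. It had 4.10, 29.9 and 128 FPKM across hGFAP-Gnas, 9.56, 29.1 and 90.4 FPKM across Olig1-Gnas, and 2.79, 4.65 and 4.50 FPKM across Ctrl. The highest value of all was in hGFAP-Gnas 2, and hGFAP-Gnas 1 lay among the Ctrl libraries. The difference was 2.63 ± 0.69 in hGFAP-Gnas (adjusted p = 0.0167) and 2.83 ± 0.57 in Olig1-Gnas (adjusted p = 0.00115). In hGFAP-Gnas the call was lost without Ctrl 1, 2 or 3 (adjusted p = 0.0727, 0.0592 and 0.0553), and it was 3.00 with an adjusted p of 0.000324 without hGFAP-Gnas 1.

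Ifit2, whose protein binds RNA and restrains translation, had the smallest adjusted p of the 33 genes in both comparisons (chr19:34625183-34651024, mm9). It had 5.20, 11.9 and 16.3 FPKM across hGFAP-Gnas, 5.78, 10.9 and 16.5 FPKM across Olig1-Gnas, and 1.39, 1.22 and 2.13 FPKM across Ctrl. All 16 knockout libraries exceeded all 3 Ctrl libraries. The difference was 2.25 ± 0.29 in hGFAP-Gnas (adjusted p = 0.00320) and 2.21 ± 0.26 in Olig1-Gnas (adjusted p = 2.1e-05), and 2.39 and 2.04 without the libraries that stood apart. Its neighbours in the same gene cluster were less even. Ifit3 stood at 3.33 to 53.6 FPKM in hGFAP-Gnas, 3.24 to 29.0 FPKM in Olig1-Gnas and 5.67 to 7.33 FPKM in Ctrl, and Ifit1 at 1.13 to 13.3, 0.424 to 9.69 and 0.836 to 1.39 FPKM in hGFAP-Gnas, Olig1-Gnas and Ctrl. Neither was called in either comparison.

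**Figure D3:**
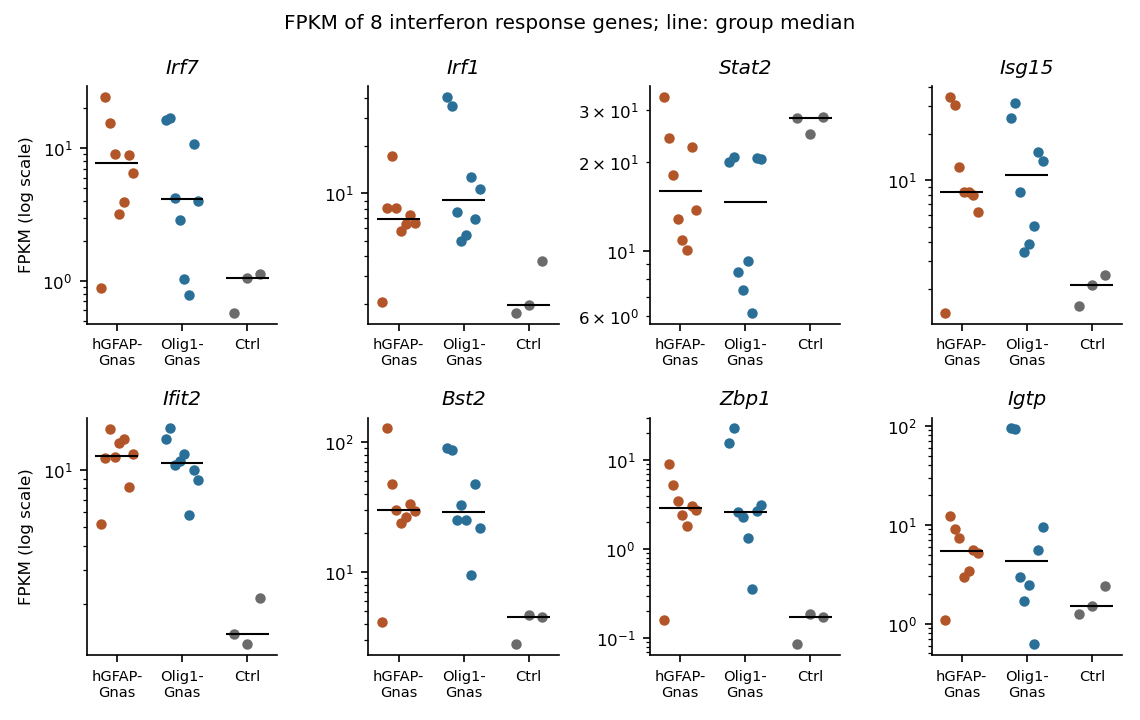
FPKM of 8 interferon response genes in every library on a log axis, with hGFAP-Gnas and Olig1-Gnas left of Ctrl and a line at each group's median. Ifit2 is above Ctrl in all 16 knockout libraries, Stat2 is below Ctrl in all 8 Olig1-Gnas libraries, and 1 hGFAP-Gnas library lies at or near the Ctrl level of the other genes.

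The other 12 effectors differed from Ctrl by 0.39 to 1.79 in hGFAP-Gnas and, leaving out the untested Mx1, by 0.27 to 1.48 in Olig1-Gnas. Rsad2, which encodes viperin, an enzyme that makes an antiviral nucleotide, had 0.685, 2.24 and 6.29 FPKM across hGFAP-Gnas, 0.354, 1.20 and 5.72 FPKM across Olig1-Gnas, and 0.146, 0.159 and 0.480 FPKM across Ctrl. It rose in hGFAP-Gnas (1.51 ± 0.38, adjusted p = 0.0146) and was not called in Olig1-Gnas (1.03 ± 0.49, adjusted p = 0.0869). Of the 3 genes that encode oligoadenylate synthases or a relative, which activate or resemble the enzymes that activate RNase L, Oas1a, Oas2 and Oasl2 rose by 1.31, 0.88 and 1.71 in hGFAP-Gnas and none was called in Olig1-Gnas, at 1.34, 0.76 and 1.47. Rtp4, a chaperone of receptors, rose by 1.79 ± 0.58 and 1.48 ± 0.60 in hGFAP-Gnas and Olig1-Gnas. Mx1, a dynamin-like GTPase that blocks influenza virus and is known to be defective in most laboratory strains, rose by 1.40 ± 0.44 in hGFAP-Gnas, where it stood at 0.233 to 6.08 FPKM against at most 0.0797 FPKM in Ctrl. In hGFAP-Gnas the calls of Oas1a, Oas2, Oasl2, Rtp4 and Mx1 were lost without any 1 Ctrl library, and that of Rsad2 without Ctrl 1 or 2; the call of Rtp4 in Olig1-Gnas was lost without any 1 Ctrl library, as was that of Ifi44 (0.92 ± 0.37 with all libraries). Ifit1, Ifit3, Mx2, Xaf1 and Ifi35 were not called in either comparison. The Ifit, Oas, Mx and Gbp genes have close relatives, and how reads shared between relatives were assigned is not given in the sources used here.

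Of the tagging genes, Isg15, the ubiquitin-like protein that is joined to others in the response (chr4:155573532-155574927, mm9), was called in both comparisons. It had 1.40, 8.40 and 34.5 FPKM across hGFAP-Gnas, 3.45, 10.9 and 31.3 FPKM across Olig1-Gnas, and 1.56, 2.13 and 2.47 FPKM across Ctrl. All Olig1-Gnas libraries were above Ctrl, and hGFAP-Gnas 1 was below every Ctrl library. The difference was 1.85 ± 0.66 in hGFAP-Gnas (adjusted p = 0.0452) and 1.88 ± 0.58 in Olig1-Gnas (adjusted p = 0.0148), and it was 2.17 without hGFAP-Gnas 1 and 1.42 without Olig1-Gnas 1 and 2. In hGFAP-Gnas the call was lost without any 1 Ctrl library (adjusted p of 0.1001 to 0.136), and in Olig1-Gnas without Ctrl 1 (adjusted p = 0.0584).

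Usp18, the protease that removes ISG15 and damps the type I receptor, stood at 0.552 to 12.4 FPKM in hGFAP-Gnas, 0.378 to 12.9 FPKM in Olig1-Gnas and 0.548 to 0.846 FPKM in Ctrl, and was not called (adjusted p = 0.0552 and 0.142). Trim25, the ubiquitin ligase that helps RIG-I, rose by 1.04 ± 0.28 in hGFAP-Gnas and was not called in Olig1-Gnas (0.65 ± 0.32). Parp14 and Parp9, which attach or bind ADP-ribose, rose by 1.13 ± 0.33 and 1.06 ± 0.34 in hGFAP-Gnas and were not called in Olig1-Gnas. The calls of Parp14 and Parp9 were lost without any 1 Ctrl library, and that of Trim25 without Ctrl 1 or 2. Dtx3l, a ubiquitin ligase and partner of PARP9, had 0.843, 2.66 and 3.82 FPKM across hGFAP-Gnas, 0.558, 1.80 and 9.97 FPKM across Olig1-Gnas, and 1.18, 1.18 and 1.90 FPKM across Ctrl, and was not called (0.55 ± 0.26 and 0.52 ± 0.58). Dtx3l and Parp9 are printed with the same locus in the tables (chr16:35926600-35972691, mm9), so the split of reads between them is uncertain.

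Of the 4 GTPases, Igtp, Irgm1 and Gbp2 had the 3 largest standard errors of the 32 genes tested in Olig1-Gnas. Igtp, an immunity-related GTPase whose promoter holds the paired GAS and ISRE letters shown above, reached 94.5 FPKM in Olig1-Gnas 1 and 93.5 FPKM in Olig1-Gnas 2, where the remaining 6 had 0.619 to 9.52 FPKM. It stood at 1.09 to 12.4 FPKM in hGFAP-Gnas and at 1.26, 1.5 and 2.39 FPKM in Ctrl. Igtp was not called in either comparison (1.16 ± 0.47, adjusted p = 0.0688 in hGFAP-Gnas; 1.73 ± 1.25, adjusted p = 0.254 in Olig1-Gnas), and without Olig1-Gnas 1 and 2 the difference was 0.59.

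Irgm1, of the same family, reached 89.6 FPKM in Olig1-Gnas 1 and 86.3 FPKM in Olig1-Gnas 2, with 3.63 to 14.7 FPKM in the other 6, 3.60 to 31.8 FPKM in hGFAP-Gnas and 2.73 to 5.50 FPKM in Ctrl. Gbp2, a guanylate-binding protein, reached 44.8 FPKM in Olig1-Gnas 1 and 45.0 FPKM in Olig1-Gnas 2, with 2.37 to 6.47 FPKM in the other 6, 1.85 to 12.4 FPKM in hGFAP-Gnas and 1.35 to 3.19 FPKM in Ctrl. Both rose in hGFAP-Gnas (1.38 ± 0.49 and 1.22 ± 0.43), a call lost without any 1 Ctrl library, and neither was called in Olig1-Gnas. Gbp3 was not called in either comparison.

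The level of the 33 genes differed widely between libraries of 1 knockout. The median over the 33 genes of the difference from the Ctrl mean was 0.00, 2.02, 2.22, 1.27, 0.82, 0.79, 1.29 and 1.03 in hGFAP-Gnas 1 to 8. In Olig1-Gnas 1 to 8 it was 2.61, 2.68, 0.74, 0.42, 0.15, 0.00, 1.40 and 1.01, and in Ctrl -0.14, -0.09 and 0.20. The medians of 0.00 stand for genes on both sides of Ctrl: hGFAP-Gnas 1 had 7 genes above every Ctrl library and 8 below, and Olig1-Gnas 6 had 11 above and 11 below, with differences from -1.98 for Stat2 to 2.46 for Lgals3bp. The highest medians were those of hGFAP-Gnas 2 and 3 and Olig1-Gnas 1 and 2.

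Olig1-Gnas 1 and 2 were the 2 highest libraries of their group for 32 of the 33 genes (97%), as they were for 12.1% of all genes tested, with Stat2 the exception. hGFAP-Gnas 2 and 3 were the 2 highest for 27 genes (81.8%, against 13.1% of all genes tested), and hGFAP-Gnas 1 was the lowest for 31 genes (93.9%, against 43.2%). All 8 hGFAP-Gnas libraries exceeded all Ctrl libraries for 6 of the 33 genes (12.5% of 19243 genes did), and without hGFAP-Gnas 1 this held for 29 genes (27.4%). All 8 Olig1-Gnas libraries did so for 8 genes (25.0% of 19181 genes), and for 1 gene, Stat2, all were below (17.7%).

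The high libraries did not raise the same roles equally. The median difference of the 4 GTPases was 4.12 and 4.10 in Olig1-Gnas 1 and 2, against 2.17 and 2.31 in hGFAP-Gnas 2 and 3. The median of the 15 effectors was 2.39 and 2.53 in hGFAP-Gnas 2 and 3, and 2.32 and 2.31 in Olig1-Gnas 1 and 2. This is a description of 4 libraries that were picked for their high levels, and it was not tested.

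**Figure D4:**
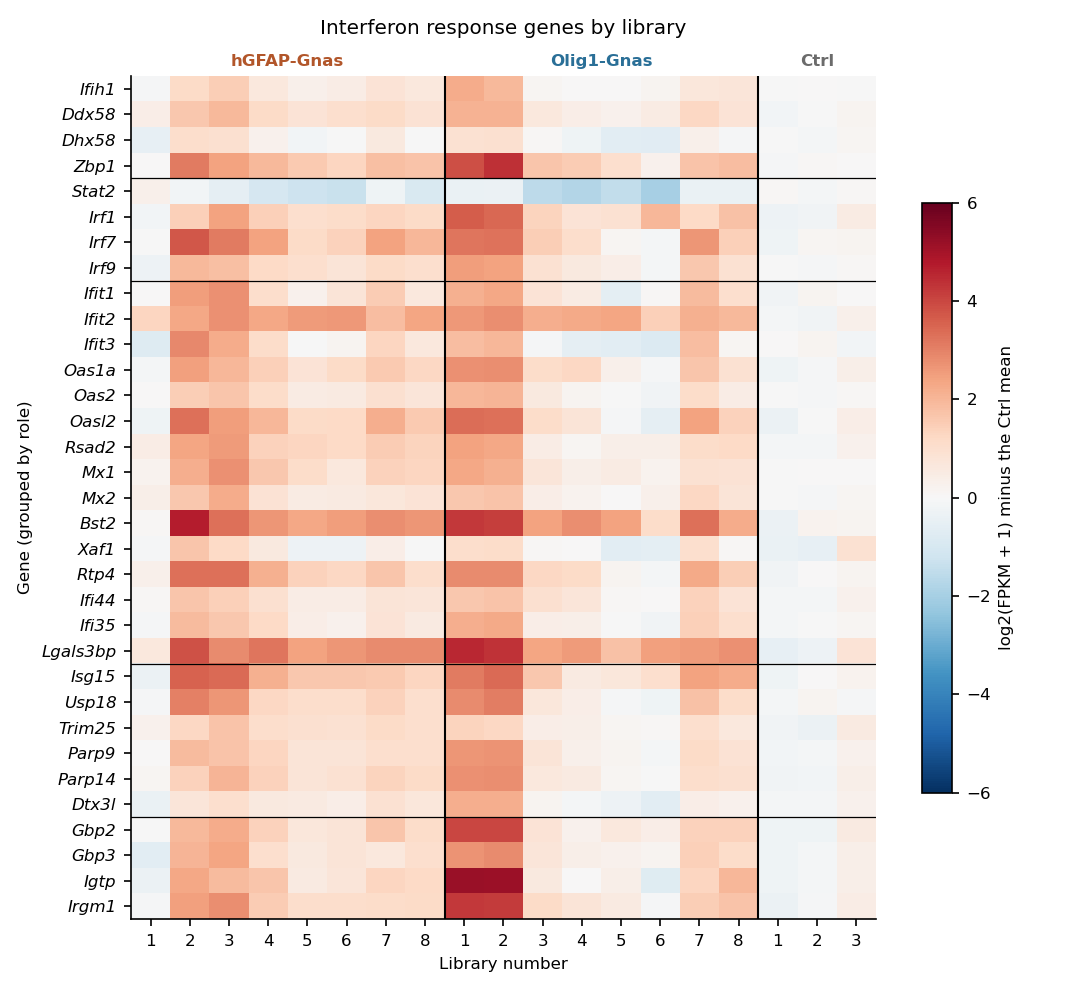
Difference of log2(FPKM + 1) from the Ctrl mean for 33 interferon response genes (rows, grouped by role) in 19 libraries (columns), red for higher and blue for lower. hGFAP-Gnas 2 and 3 and Olig1-Gnas 1 and 2 are red for most genes, hGFAP-Gnas 1 and Olig1-Gnas 6 hold both red and blue genes around a median of 0.00, and Stat2 is the row that is blue in most knockout libraries.

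Markers of immune cells differed between these libraries too, in part in another order. Summed FPKM of 15 microglia and macrophage markers was 227, 1105 and 1858 in hGFAP-Gnas (lowest, median, highest), 847, 1039 and 3015 in Olig1-Gnas, and 107, 107 and 156 in Ctrl. The lowest value in hGFAP-Gnas was in library 1 and the highest in library 2, and library 3, at 1337 FPKM, was close to library 4 at 1354 FPKM; in Olig1-Gnas libraries 1 and 2 held 3015 and 2525 FPKM, and the other 6 held 847 to 1126 FPKM. Of these 15 markers 13 rose in hGFAP-Gnas and 11 in Olig1-Gnas, where 26.1% and 36.2% of all tested genes rose.

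Summed FPKM of 14 markers of T and natural killer cells was 1.25, 6.996 and 7.77 in hGFAP-Gnas, 3.49, 6.36 and 46.7 in Olig1-Gnas, and 0.379, 0.442 and 2.31 in Ctrl. The sum was 41.1 FPKM in Olig1-Gnas 1 and 46.7 FPKM in Olig1-Gnas 2, and no other library more than 8.57 FPKM. Cd3g, a chain of the T cell receptor complex, reached 6.89 FPKM in Olig1-Gnas 1 and 11.1 FPKM in Olig1-Gnas 2, and was at most 0.662 FPKM in the other knockout libraries, and listed at 0 in all 3 Ctrl libraries. Of the 14 only Cd4, which microglia can also express, passed the filter on low values, and it rose in both comparisons. It made up 43.3 to 84.2% of the sum in hGFAP-Gnas 2 to 8 and 46.9 to 76.8% in Olig1-Gnas 3 to 8. Without Cd4 the sum was 1.06 to 3.44 FPKM in hGFAP-Gnas, 0.845 to 4.55 FPKM in Olig1-Gnas 3 to 8 and 0.352 to 2.24 FPKM in Ctrl, so these ranges overlapped, and 36.4 and 39.9 FPKM in Olig1-Gnas 1 and 2. The part of immune cells in the levels of the interferon response genes was not tested. Olig1-Gnas 6, with the lowest median of the interferon response genes in its group, held 1126 FPKM of the microglia and macrophage markers, close to the 1125 FPKM of Olig1-Gnas 4. Single markers of this sum differed between these libraries. In Olig1-Gnas 6 and 4, Cx3cr1 stood at 0.639 and 13.5 FPKM, Aif1 at 12.1 and 32.1 FPKM, and Ctss at 248 and 134 FPKM. The like sums thus do not show a like make-up of these cells.

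Markers of other cell types are given for comparison. Summed FPKM of 8 dendritic cell markers was 5.30 to 30.2 in hGFAP-Gnas, 4.11 to 18.8 in Olig1-Gnas and 33.8 to 41.4 in Ctrl; within Olig1-Gnas it was highest in libraries 1 and 2 (18.8 and 16.6 FPKM), then in 7 and 8 (13.4 and 12.2 FPKM). That of 10 endothelial markers was 51.3 to 163 in hGFAP-Gnas, 70.9 to 161 in Olig1-Gnas and 90.1 to 114 in Ctrl, and within hGFAP-Gnas it was highest in libraries 2 and 3 (163 and 130.3 FPKM). That of 10 astrocyte and Bergmann glia markers was 879 to 2146 in hGFAP-Gnas, 272 to 1098 in Olig1-Gnas and 1381 to 1503 in Ctrl. Markers within a sum moved apart. Of the endothelial markers in hGFAP-Gnas, Cldn5 was highest in libraries 3 and 2 (52.7 and 40.6 FPKM). Pecam1 and Flt1 were highest in library 1 instead (10.2 and 8.81 FPKM). Most of the dendritic sum in Ctrl was Zbtb46 (23.1 to 25.9 FPKM) and Flt3 (9.04 to 12.9 FPKM), both lower in every knockout library. Itgax was higher in every knockout library, at 0.160 to 4.68 FPKM in hGFAP-Gnas, 1.17 to 8.24 in Olig1-Gnas and 0.0538 to 0.159 in Ctrl. The order of the dendritic sum within Olig1-Gnas was thus not that of each marker. In Olig1-Gnas 7 and 8 Zbtb46 stood at 6.57 and 7.25 FPKM, and Itgax at 2.75 and 1.17 FPKM. Of the 10 glial markers 1 rose and 2 fell in hGFAP-Gnas, where 26.1% of all tested genes rose and 12.8% fell. In Olig1-Gnas 2 rose and 5 fell, where 36.2% of all tested genes rose and 23.6% fell. The part of these cells in the levels of the interferon response genes was not tested.

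**Figure D5:**
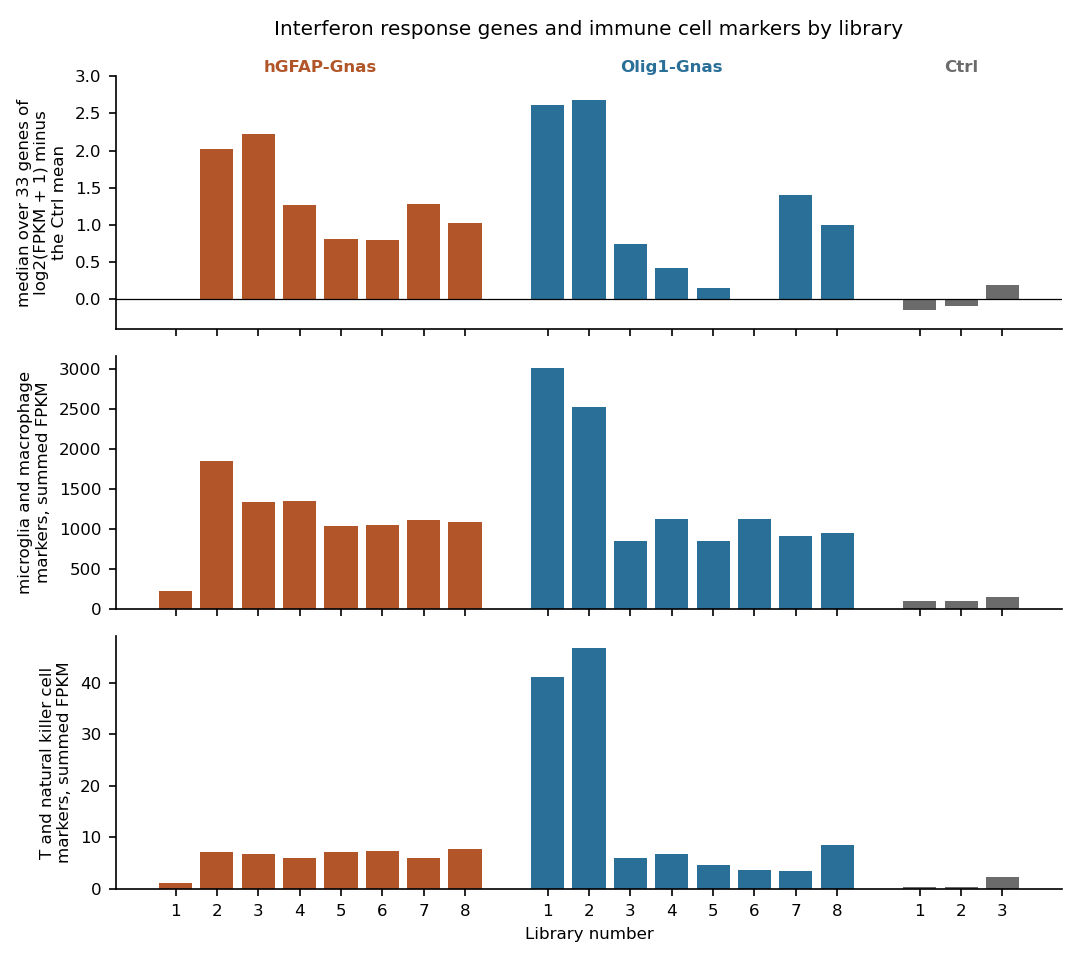
For each library, the median over 33 interferon response genes of log2(FPKM + 1) minus the Ctrl mean (top), and the summed FPKM of 15 microglia and macrophage markers (middle) and of 14 T and natural killer cell markers (bottom). Olig1-Gnas 1 and 2 are highest in all 3 panels, at 2.61 and 2.68, 3015 and 2525 FPKM, and 41.1 and 46.7 FPKM.

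Between the knockouts no interferon response gene was called. Of the 33 genes, all tested, 0 were called by limma, 0 had an unadjusted p under 0.05, and 0 were called in any of the alternatives run, where 59 of 14386 genes (0.41%) were called and 3410 had an unadjusted p under 0.05. The differences hGFAP-Gnas minus Olig1-Gnas ran from -0.69 for Irf1 (± 0.42, adjusted p = 0.313) to 0.48 for Rsad2 (± 0.37, adjusted p = 0.426), and 19 were above 0 and 14 below. The smallest adjusted p was 0.284, for Trim25 (0.39 ± 0.23). The 95% intervals of the difference were 0.916 to 3.34 wide (median 1.71) and reached from -2.24 to 1.64, so these data do not show that the knockouts are alike. For Igtp the difference was -0.57 ± 0.79, with an interval from -2.24 to 1.10.

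The median difference between the knockouts depended on the libraries. It was 0.03 over the 33 genes (-0.01 over all genes), 0.47 without Olig1-Gnas 1 and 2, with 32 genes above 0, and 0.66 without hGFAP-Gnas 1 as well, with all 33 above 0 (0.05 over all genes). Igtp stood at 0.57 in the first of these reduced fits and at 0.79 in the second, in which Irf1 stood at 0.05. Among the deeper libraries alone, which include hGFAP-Gnas 1, the median was 0.68 with 32 genes above 0, and among the shallower, which include Olig1-Gnas 1 and 2, it was -0.63 with 3 above 0. Quantile normalization moved the median to -0.16, with 11 genes above 0. With Y-linked signal (at least 1 FPKM of Ddx3y) as a term it was 0.54, with 31 genes above 0. That signal was present in hGFAP-Gnas 1, 2 and 4 to 8, in Olig1-Gnas 5 and 8 and in Ctrl 1 and 2. It was thus uneven between the groups, and the labels do not give the sex of the mice. None of the 33 genes was called in any of these fits.

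Other genes of the pathway were followed in 5 lists. Of 10 interferon genes themselves, among them Ifnb1 and Ifng, none passed the filter in any comparison. The highest value among them was 0.704 FPKM of Ifng in Olig1-Gnas 1, and Ifna4, Ifna5 and Il28b are listed at 0 in all libraries. Of 9 genes of the receptors and their signaling, all tested, 3 rose and 1 fell in hGFAP-Gnas, where 26.1% of all tested genes rose and 12.8% fell, and 2 rose and 2 fell in Olig1-Gnas, where 36.2% rose and 23.6% fell. The counts in Olig1-Gnas were thus no higher than the shares of all genes, and those in hGFAP-Gnas were near them. Ifnar1, a chain of the type I receptor, rose by 0.63 ± 0.21 and 0.66 ± 0.16, and Jak1, a kinase of both receptors, fell by 0.49 ± 0.14 and 0.58 ± 0.13 in hGFAP-Gnas and Olig1-Gnas. Il10rb rose by 1.02 and Ifngr1, of the type II receptor, by 0.55 in hGFAP-Gnas, and in Olig1-Gnas Jak2 rose by 0.47 and Ifngr2 fell by 0.80. The median difference of the list was 0.33 in hGFAP-Gnas and 0.47 in Olig1-Gnas.

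Of 12 genes that lead to interferon production, 11 are in the tables; 5 of 11 tested rose in hGFAP-Gnas and 5 of 10 in Olig1-Gnas, and 0 fell, beside 26.1% and 36.2% of all tested genes that rose. Tmem173, which encodes STING, the adaptor for cytosolic DNA, rose by 1.93 ± 0.45 and 2.55 ± 0.53 in hGFAP-Gnas and Olig1-Gnas. Tlr7, an endosomal RNA sensor of myeloid cells, rose by 1.66 ± 0.23 and 1.33 ± 0.43, the kinase gene Ikbke by 1.27 ± 0.25 and 1.32 ± 0.44, and Ifi204, a DNA sensor, by 2.07 ± 0.51 and 1.26 ± 0.38. Tlr7, Ikbke and Ifi204 were under 1 FPKM in every Ctrl library and passed the filter through the knockouts alone.

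Of 10 genes that restrain the response, 4 rose and 0 fell in hGFAP-Gnas, and 4 rose and 1 fell in Olig1-Gnas; of all tested genes 26.1% rose in hGFAP-Gnas, and in Olig1-Gnas 36.2% rose and 23.6% fell, so the 4 that rose there were near the share of all genes and the 1 that fell was below it. Socs3, which inhibits JAK kinases and is raised by other cytokines too, had 2.55, 17.7 and 24.2 FPKM across hGFAP-Gnas, 12.7, 20.7 and 26.7 FPKM across Olig1-Gnas, and 0.430, 0.496 and 0.682 FPKM across Ctrl, with no overlap. It rose by 3.30 ± 0.49 and 3.77 ± 0.21. Rnaseh2b, a subunit of the enzyme that removes RNA from DNA, rose by 1.86 ± 0.50 and 2.18 ± 0.19, the phosphatase gene Ptpn6 by 2.09 ± 0.43 and 2.02 ± 0.62, and Samhd1, which degrades nucleotides, by 1.11 ± 0.20 and 1.19 ± 0.31. Adar, an RNA editing enzyme, fell by 0.72 ± 0.13 in Olig1-Gnas. Members of this list thus have other known roles, in replication and in blood cells.

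Of 34 other interferon-induced genes, 18 of 30 tested rose in hGFAP-Gnas and 11 of 33 in Olig1-Gnas, and 0 fell, where 26.1% and 36.2% of all tested genes rose, so the count in Olig1-Gnas was no higher than that of all genes. The medians were 1.03 and 1.14. Some genes of this list, such as Slfn2 and Trim30a, were under 1 FPKM in every Ctrl library and passed the filter through the knockouts alone. The list was not counted without the filter, so its counts show no excess by themselves. Ifi27l2a, an interferon-induced membrane protein, rose by 2.99 ± 0.56 and 2.72 ± 0.82, Ifitm3, which blocks virus entry, by 2.40 ± 0.55 and 2.16 ± 0.36, Psmb8, of the immunoproteasome, by 2.24 ± 0.53 and 2.94 ± 0.94, and the T cell attractant Ccl5 by 1.79 ± 0.59 and 2.49 ± 0.94. Psmb8 reached 137 FPKM in Olig1-Gnas 1 and 118 FPKM in Olig1-Gnas 2, where the remaining 6 had 6.36 to 20.1 FPKM. Ccl5 reached 45.7 FPKM in the first and 51.5 FPKM in the second of these, where the remaining 6 had 1.57 to 8.57 FPKM. The same 2 libraries thus stood apart in these genes outside the 33 as well.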

How the data were processed

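The authors deposited FPKM per gene and library, in 1 table per knockout with the Ctrl libraries in both; TopHat, Cufflinks and mm9 are named by the submitters' processing notes, and the labels' protocols give Trizol and RNeasy extraction, TruSeq libraries and Illumina HiSeq sequencing. Versions, annotation, strandedness and read totals are not given in the sources used here. Values of Ctrl 2 and 3 do not change from one table to the other, while those of Ctrl 1 do for 5106 genes, by at most 0.707% in an interferon response gene, and each comparison used its own table's values.

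Genes that reached 1 FPKM in 3 or more libraries of a fit were tested on log2(FPKM + 1) with limma 3.58.1 in R 4.3.3 (trend and robust moderation), on the groups compared, with Benjamini-Hochberg adjustment over all genes tested; calls needed an adjusted p under 0.05. Folds are differences on that scale, which understates those of low genes. The fits were also run on simulated data in which each gene varied independently. Those data held no close pairs and no library that stood apart, so this check does not cover them. p-values measure spread between libraries labelled as separate mice.

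Values are given in full for sensors, factors, the 3 largest called differences per comparison and genes with a distant library, and otherwise by range; of pathway lists, for up to 4 called genes; 1 gene that the rule also names is not reported here. Irf1, Trim25, Rsad2 and Igtp between knockouts, and other genes with per-library values, were picked after their values were seen. The genes, lists and tests were chosen with earlier results of these data known. Depth classes used a limit of 0.6 of the depth of Ctrl 2. The alternatives changed the offset, filter, scaling, moderation, libraries and terms of the fit. Promoter windows come from RefSeq (GRCm38.p6), gene positions from the tables (mm9).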

Additional observations from a re-analysis of the deposited data

Results flagged for a closer look

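Among 66 searches, 1 for each interferon response gene in each knockout group, 2 found a single library far from the other 7 by Dixon's ratio on log2(FPKM + 1), beyond its 95% critical value. Chance alone is expected to give such a flag in about 1 of 20 groups. Both concern hGFAP-Gnas 1, the library nearest to Ctrl, which was low for each gene. Lgals3bp stood there at 8.81 FPKM, where the other hGFAP-Gnas libraries held 33.4 to 88.4 FPKM. Dtx3l stood there at 0.843 FPKM, where the others held 2.12 to 3.82 FPKM.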

How the results depend on the processing

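Counts give genes called by limma in both directions. In hGFAP-Gnas against Ctrl, where 20 interferon response genes and 5570 genes in all were called, the counts of interferon response genes were 13 without a filter, 11 with a filter of 5 FPKM, 12 after quantile normalization, 10 with all 19 libraries in 1 fit, 8 in shallower libraries (2277 genes in all), 0 in deeper libraries (6 in all) and 0 with the closest pairs averaged (7 in all). Leaving out 1 library gave 2 to 30, and 818 to 8164 in all. In Olig1-Gnas against Ctrl, where 9 and 8485 were called, they were 2 in shallower libraries (5141 in all), 5 with Y-linked signal as a term and 3 with the closest pairs averaged; leaving out 1 library gave 3 to 13, and 6971 to 9546 in all. Between the knockouts 0 interferon response genes were called throughout, and of all genes 59 in the main comparison, 35 with a filter of 5 FPKM, 178 with all 19 libraries, 166 with depth class as a term, 3 in deeper libraries, 3 with Y-linked signal as a term, 25 without Olig1-Gnas 1 and 2, 143 also without hGFAP-Gnas 1, 21 with the closest pairs averaged and 11 to 104 without 1 library. The cause of these changes was not tested, beyond the fewer libraries that some settings hold.

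The labels name no link between same-numbered libraries beyond the number, so whether they are paired is unknown. Correlations of their deviations were -0.0975 to 0.124 for hGFAP-Gnas and Ctrl, -0.178 to 0.0511 for Olig1-Gnas and Ctrl and -0.172 to 0.254 between the knockouts. Libraries correlated best with their own number in 2 of 3, 1 of 3 and 2 of 8 pairs. With the replicate number as a block, 0 interferon response genes and 0 genes in all were called in hGFAP-Gnas against Ctrl, 21 and 8394 in Olig1-Gnas against Ctrl, and 0 and 25 between the knockouts.

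Directions turned for genes that were not called. Dhx58 in Olig1-Gnas against Ctrl was -0.0439 after quantile normalization, -0.0572 after upper quartile scaling, -0.0152 with depth class as a term, -0.19 in deeper libraries, -0.11 with Y-linked signal as a term, -0.0408 without Olig1-Gnas 1, -0.0452 without Olig1-Gnas 2 (-0.0452 to 0.184 without any 1 library), -0.20 without both and -0.0782 with the closest pairs averaged. Xaf1 there was -0.31 in shallower libraries, -0.12 with Y-linked signal, -0.00589 without Olig1-Gnas 1 and 2 and -0.0728 with the closest pairs averaged, and without Olig1-Gnas 1 and 2 Ifit3 was -0.0116 and Dtx3l -0.0318. In hGFAP-Gnas against Ctrl, Dhx58 was -0.0261 after quantile normalization and -0.0548 in shallower libraries, where Xaf1 was -0.96. Between the knockouts Igtp was 0.65 in deeper libraries, 0.57 without Olig1-Gnas 1 and 2 and 0.79 also without hGFAP-Gnas 1, where Irf1 was 0.0525. The settings that average the closest pairs or leave out Olig1-Gnas 1 and 2 were chosen after seeing the data. With 3 Ctrl libraries and unknown read totals, differences of genes near 1 FPKM are the least certain.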
